A study of Populus ussuriensis with 12 samples.

Results

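The transcriptional response to polyethylene glycol (PEG) was measured in root tips of Populus ussuriensis plants that overexpress PuC3H35 (OE). It was read from 6 of the 12 libraries of the study, 3 OE PEG against 3 OE control libraries. Of the 34699 gene identifiers in the deposited table, 22699 had a mean FPKM of at least 1 over these 6 libraries and were tested, and 12000 were not. FPKM are read numbers scaled to gene length and to library depth. The plants of all groups were grown in vitro and were 1 week old when they were moved for 7 days to agar medium, with 6% PEG6000 for the PEG groups and with none for the controls. The outer 0.5 cm of the root was harvested. Wild-type plants (WT), also in 3 PEG and 3 control libraries, had the same medium and harvest. Each of the 6 OE libraries has its own number in the genotype label, running from PuC3H35 to PuC3H40, whereas the study's title names 1 overexpression line, and they were taken as 1 genotype. The sources used here do not give the promoter of the transgene or how many transformed lines were used.

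By its name PuC3H35 belongs to the CCCH zinc finger proteins, a family in which many members bind RNA and several act in plant stress responses. PEG of high molecular weight stays outside the cell wall and lowers the water potential of the medium, so it is widely used to impose water deficit on cultured plants. The root tip holds the root cap, the meristem and the elongation zone, and is where a root first meets drying medium. The study asked how overexpression bears on this response. The deposited table gives identifiers without names and no annotation was used here, so no identifier was given a function, the markers of root tip cell types were not checked and the level of PuC3H35 was not looked up. In whole root tips, more cells of a type and more RNA per cell cannot be told apart.

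The OE libraries held 28026995 to 36482048 recovered reads without PEG and 30424705 to 37101910 with PEG. Summed FPKM was 612375.6 to 619319.2 in the OE control libraries and 661656 to 665551.4 in the OE PEG libraries, without overlap, and 610202 to 623973.4 in the 6 WT libraries. No pair of OE replicates agreed within sampling noise: chi-square per degree of freedom was 2.819 to 4.532 over 25474 to 26209 genes. Counting error alone gives 1, or up to 2 where both mates of a pair count as reads. Of the recovered read numbers under 20, 61.9% to 62.6% were even in the OE control and 55.9% to 60.9% in the OE PEG libraries, without overlap. In the WT libraries 67.8% to 70.1% were even. The cause of this difference between libraries was not tested. The labels do not tie replicates to separate plants or cultures, and p-values therefore measure the spread between these libraries only, part or all of which may be technical. The median SD between replicates on the log2(FPKM + 1) scale was 0.0762 in OE control and 0.0695 in OE PEG.

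With PEG, far more OE genes rose strongly than fell strongly. A total of 1767 genes were raised at least 2-fold (7.78% of those tested) and 530 were lowered at least 2-fold (2.33%), each also past an adjusted p of 0.05 in limma. Beyond 4-fold, 533 genes were raised and 44 lowered. Beyond 8-fold there were 107 and 3, and beyond 16-fold 29 and 0. The 3 OE PEG libraries lay wholly above the 3 OE control libraries in 1766 of the 1767 raised genes, and wholly below them in all 530 lowered genes. The genes were chosen on these same libraries, so this describes the lists and is not further support. The share without overlap among all tested genes was not counted. Fold changes are on the log2(FPKM + 1) scale, on which the change of genes with low FPKM is understated.

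**Figure D1:**
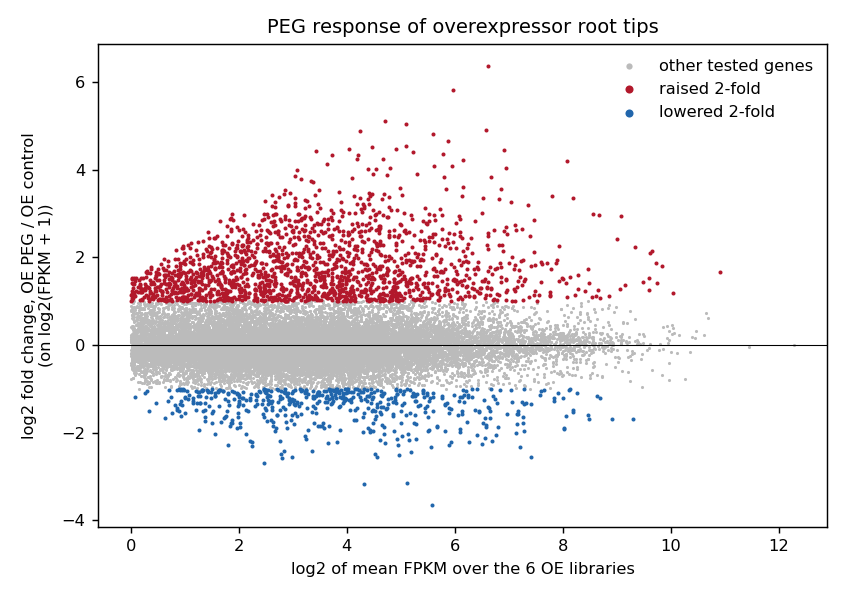
PEG response of OE root tips, with the log2 fold change of each of the 22699 tested genes (OE PEG over OE control, on log2(FPKM + 1), n = 3 libraries per group) against the log2 of its mean FPKM over the 6 OE libraries. Red points are the 1767 genes raised 2-fold and blue points the 530 lowered 2-fold; only rises pass a log2 fold change of 4 in size.

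At any size, 7079 genes were raised (31.2%) and 7636 lowered (33.6%), so the excess of rises belonged to the large changes. The median size of a called change was 0.424 on the log2 scale. The median fold change of all tested genes was -0.018 on the log2 scale. Genes raised made up 48.1% of the 14715 called. This share depended on how libraries were scaled. With FPKM rescaled to the same sum, which moved the median of all genes to -0.113, 5553 genes were raised and 9778 lowered, or 36.2% raised. With quantile normalization 5899 were raised and 9472 lowered, or 38.4% raised. The count of genes lowered 2-fold rose to 823 with a pseudocount of 0.1 and to 820 with limma voom on the recovered reads.

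The raised genes took up a larger part of the transcriptome. In the OE control libraries they held 4.171%, 4.196% and 4.187% of all FPKM, and in the OE PEG libraries 13.542%, 13.46% and 13.45%. Their median level was 3.322 to 3.418 FPKM without PEG and 15.362 to 15.808 with PEG. The share of the 530 lowered genes was 4.635% to 4.732% in the OE control and 1.542% to 1.544% in the OE PEG libraries. Their median level was 18.469 to 19.077 FPKM without PEG and 6.945 to 7.254 with it. These genes were chosen for this difference, so the values describe its size and are not a test of it. In the WT libraries, which did not enter the choice, the genes raised in OE held 2.46% to 2.493% of FPKM without PEG and 6.961% to 7.03% with it. The genes lowered in OE held 4.099% to 4.144% and 3.02% to 3.035% there.

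Raised genes occurred at all levels of expression. Among the 7043 genes with a mean of 1 to 5 FPKM, 567 were raised 2-fold (8.05%) and 124 lowered (1.76%). Among the 1251 genes at 100 FPKM or more, 114 were raised (9.11%) and 49 lowered (3.92%). The shares in the 2 classes between were 6.86% and 8.81% raised, and 2.12% and 3.14% lowered.

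Of the 20 genes with the highest mean in OE PEG, 11 were also among the 20 highest in OE control. Of the first 20, 7 were raised 2-fold, against 7.78% of all tested genes, and none was lowered 2-fold, against 2.33%. The 20 highest of OE control held none raised 2-fold and 1 lowered 2-fold. Choosing genes for a high level in 1 group favours a direction in itself, so nothing is read from these counts. The top transcript was the same in both groups, with 4841, 4935 and 5219 FPKM in OE control and 5065, 5156 and 4816 in OE PEG. Its libraries overlapped, and its log2 fold change of 0.0041 (SE 0.037) had a limma adjusted p of 0.93.

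The second most abundant transcript of OE PEG ranked only 25 in OE control. It read 872, 969 and 925 FPKM without PEG and 2952, 2951 and 2921 with PEG, without overlap. Its log2 fold change was 1.67 (SE 0.04, limma adjusted p = 6.7e-14). Another transcript moved from rank 280 to rank 13, from 297, 288 and 302 FPKM to 1328, 1298 and 1295, a log2 fold change of 2.14 (SE 0.03, limma adjusted p = 7.7e-16). A transcript of 222 bp moved from rank 99 to rank 15, from 446, 470 and 496 FPKM to 1258, 1240 and 1237 (log2 fold change 1.40, SE 0.04, limma adjusted p = 1.2e-12). In these 3 the WT rise was larger on the log2 scale, at 2.72, 2.53 and 3.71, and the interaction was below 0 (limma adjusted p from 1.4e-12 to 1.5e-06). Nothing is read from the interactions of the 7 raised genes among the 20 as a set, since these were chosen for a high level in OE PEG. The interaction was below 0 in 6 of the 7, against 28.7% of all tested genes. The exception moved from rank 53 to rank 9, from 660.3, 648 and 640.4 FPKM in OE control to 1479, 1464 and 1473 in OE PEG, without overlap. Its log2 fold change was 1.18 in OE (SE 0.03, limma adjusted p = 1.2e-13) and 0.16 in WT, with an interaction of 1.02 (limma adjusted p = 8.6e-11).

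Genes that were close to silent without PEG are a further class. In 25 of the 22699 tested genes every OE control library was under 0.5 FPKM and every OE PEG library at 5 or more, and no gene showed the converse. Their mean in OE PEG had a median of 7.4659 and a maximum of 37.431 FPKM. In WT under PEG, 5 of the 25 also reached 5 FPKM in every library, 11 were under 0.5 in every library and 9 lay between. The 25 were chosen on their OE values and passed the filter on mean FPKM through the OE PEG libraries. The shares of all tested genes at these WT levels were not counted, so nothing is read from these WT counts.

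The steepest rises were in 2 short genes on chromosome 3 with nearby identifiers. Potri.003G061200, with a recovered length of 470 bp, read 0.658, 2.05 and 1.69 FPKM in OE control and 192, 201 and 193 in OE PEG. Potri.003G061000, of 466 bp, read 0.929, 1.53 and 1.18 without PEG and 127, 124 and 119 with it. The groups were far apart in both, and a lack of overlap was a condition for naming a gene by identifier. With PEG the first gained 6.36 (SE 0.17, limma adjusted p = 1.8e-13) and the second 5.82 (SE 0.15, limma adjusted p = 2e-13) on the log2 scale. In WT the same genes were at 0.147 ± 0.158 and 0.211 ± 0.365 FPKM (SD, n = 3) without PEG and at 20.7 ± 1.60 and 19.2 ± 1.73 with it, so they rose there too, to a lower level.

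Their interaction, the log2 fold change in OE less that in WT, was 2.11 and 1.73 on the log2(FPKM + 1) scale. It depended on the pseudocount, with the WT control libraries at or near 0. With a pseudocount of 0.5 it was 1.65 (limma adjusted p = 0.00051) and 1.29 (0.0043). With a pseudocount of 0.1 it was 0.48 (limma adjusted p = 0.51) and -0.05 (0.96). With voom on recovered reads it was -0.20 (0.84) and -1.03 (0.27). No difference in fold between the genotypes can be given for this pair, only the levels.

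The largest falls were in genes well above the median level of all tested genes, which was 8.843 to 9.1 FPKM in the OE control libraries. On the log2(FPKM + 1) scale a gene with a low control level cannot show a fall of this size. Potri.002G060400, of 1629 bp, read 89.1, 90.7 and 86.3 FPKM in OE control and 6.66, 5.77 and 6.09 in OE PEG. Its log2 fold change was -3.65 (SE 0.06, limma adjusted p = 7.5e-15), and in WT it fell from 56.1 ± 1.01 to 9.54 ± 1.00 FPKM (SD, n = 3; log2 fold change -2.44). Potri.001G176000, of 1342 bp, read 36.6, 36.5 and 36.3 FPKM in OE control and 3.45, 2.99 and 3.07 in OE PEG, a log2 fold change of -3.17 (SE 0.06, limma adjusted p = 8.1e-15). In WT it moved from 52.3 ± 2.86 to 39.1 ± 2.32 FPKM (SD, n = 3; log2 fold change -0.41, limma adjusted p = 1.6e-05). For these 2 genes too, a lack of overlap between the OE groups was a condition of the choice. The fall was steeper in OE for both, with interactions of -1.20 and -2.76 (limma adjusted p = 4.7e-08 and 2.6e-12).

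**Figure D2:**
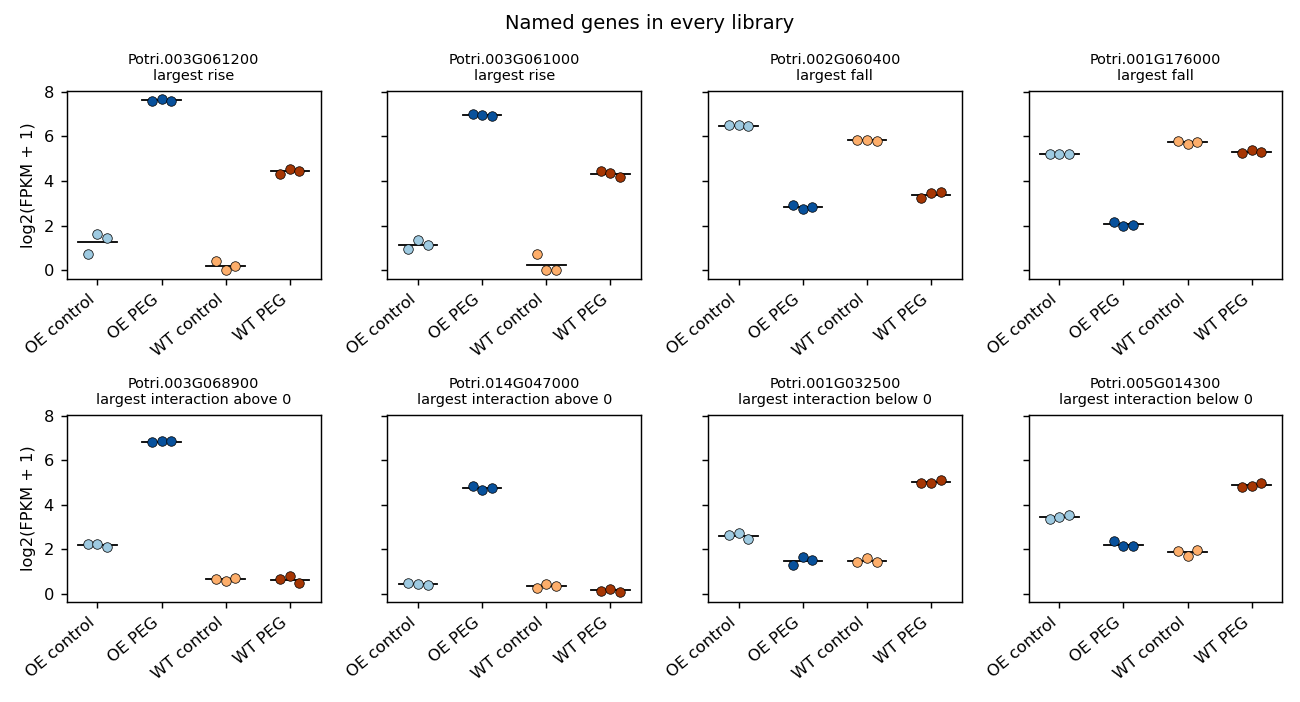
Level of the 8 named genes in each of the 12 libraries, as log2(FPKM + 1), with a point per library and a line at the mean of each group of 3. The top row holds the 2 largest rises and the 2 largest falls in OE, and the bottom row the 2 largest interactions above 0, where the WT points stay near their control, and the 2 below 0, where WT rose and OE fell.

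The next 8 rises ran from 4.52 to 5.11 on the log2 scale, from control means of 0.296 to 5.27 FPKM to PEG means of 37.4 to 186 FPKM. Of these 8, 7 also rose 2-fold in WT, and in 7 the interaction was above 0. The next 8 falls ran from -3.14 to -2.50, from control means of 10.3 to 290.1 FPKM to PEG means of 0.765 to 48.5 FPKM. Of these, 5 also fell in WT, 3 of them 2-fold, and 1 rose there. All 8 fell more in OE by the interaction, which was above 0 in 28.2% and below 0 in 28.7% of all tested genes. The 16 were chosen for large OE changes, which favours a larger OE value, so these counts are not independent support. All 16 kept a 2-fold change with the length trend removed, which changes of this size could hardly lose.

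The OE response followed gene length, and the WT response hardly did. Among genes of 500 bp or less the median log2 fold change in OE was 0.163 (919 genes), and it was 0.171 in the class above these up to 1000 bp. It was 0.013 above 1500 and up to 2000 bp, -0.209 above 3000 and up to 5000 bp and -0.429 above 5000 bp (636 genes). The corresponding WT medians lay between -0.063 and 0.088. The Spearman correlation of fold change with length, across genes that are not independent replicates, was -0.3421 in OE and 0.0366 in WT (22699 genes).

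Each OE PEG library carried this trend. Against the OE control mean, the rho of the 3 OE PEG libraries was -0.3408, -0.3346 and -0.3282, and that of the 3 WT PEG libraries against the WT control mean was 0.0302, 0.0375 and 0.029. The OE control libraries, each set against the other 2, gave 0.0554, 0.0489 and -0.1148. The trend was present at all levels of expression, with a rho of -0.2431, -0.3777, -0.4076 and -0.3347 in 4 classes of about equal size from the lowest to the highest mean FPKM. The same 3 libraries had the highest summed FPKM. This is not a separate observation, since FPKM are divided by gene length and a shift of reads to shorter genes raises their sum. The part that library preparation, RNA quality or biology had in the trend was not tested.

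**Figure D3:**
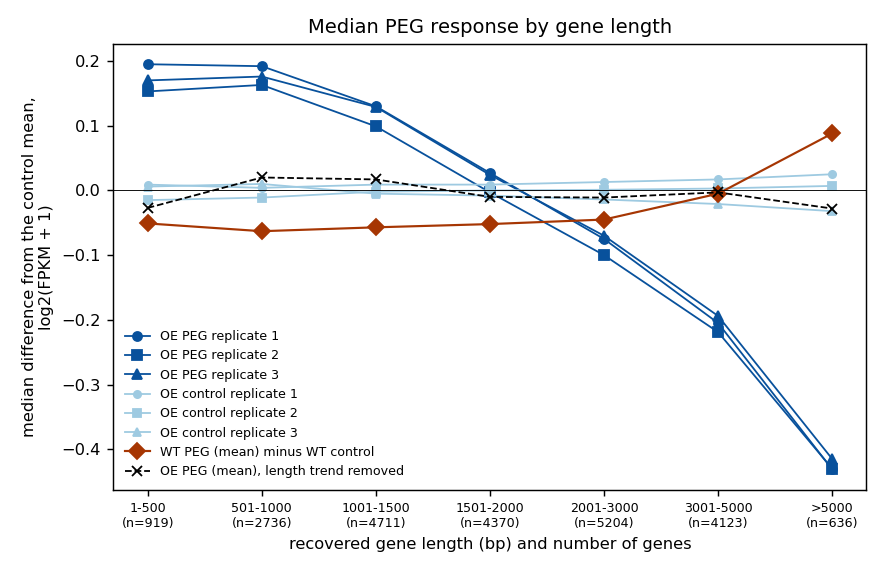
Median difference from the control mean of the same genotype, on log2(FPKM + 1), in 7 classes of recovered gene length. The 3 OE PEG libraries fall together from above 0.15 in the shortest genes to below -0.41 in those over 5000 bp, while the OE control libraries, the WT difference and the OE difference with the trend removed stay between -0.07 and 0.09.

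Genes raised 2-fold had a median length of 1320 bp and genes lowered 2-fold one of 1667.5 bp, against 1823 bp for all tested genes. Raised genes made up 14.7% of those up to 500 bp and 0.472% of those over 5000 bp. With the trend of each library on length removed, 1612 of the 1767 raised genes (91.2%) and 456 of the 530 lowered genes (86%) were still changed 2-fold. All but 1 of the raised and all of the lowered genes still passed the test in the same direction. Of the genes raised at any size, 6006 (84.8%) were still called raised and 2 were called lowered. Of those lowered at any size, 5704 (74.7%) were still called lowered and 74 were called raised. After the removal, 2-fold rises were still 11.8% of the genes up to 500 bp and 1.42% of those over 5000 bp. Falls of 2-fold were also more common among short genes, at 4.57% up to 500 bp and 1.89% over 5000 bp before the removal, and at 6.09% and 0.472% after it.

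Set beside WT, many of the rises were shared. Of the 1767 genes raised 2-fold in OE, 1390 (78.7%) were also called raised in WT, where 30% of all tested genes were, and 852 (48.2%) were raised 2-fold there, against 6.97% of all tested genes. In 283 no change was called in WT, and 94 (5.32%) were called lowered in WT, where 34.4% of all tested genes were. The 94 had a median log2 fold change of 1.321 in OE and -0.394 in WT, and 75 of them changed in opposite directions with voom in both genotypes as well. The OE and WT responses share no library.

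Falls were shared in part. Of the 530 genes lowered 2-fold in OE, 320 (60.4%) were called lowered in WT, where 34.4% of all tested genes were, and 93 (17.5%) were lowered 2-fold there, where 1.13% of all tested genes were. In 98 no change was called in WT. The other 112 (21.1%) were called raised in WT, a share below the 30% of all tested genes, with medians of -1.245 in OE and 0.397 in WT, and 109 of them held under voom. Whether the shared fraction differed between rises and falls was not tested.

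The interaction tests the difference itself. Over all tested genes it was above 0 in 6408 (28.2%) and below 0 in 6508 (28.7%). Among the 1767 raised genes the rise was larger in OE in 1043 (59%), smaller in OE in 380 (21.5%) and not called different in 344. Among the 530 lowered genes the fall was larger in OE in 460 (86.8%) and smaller in 20. Genes chosen on the OE response favour a larger OE value, and the interaction uses the same OE libraries, so these shares describe the lists and are not independent support. Under voom 776 of the 1043 were still called larger in OE and 22 called smaller, while 453 of the 460 larger falls were still called. With the length trend removed, 968 of the 1043 and 446 of the 460 were still called larger in OE.

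**Figure D4:**
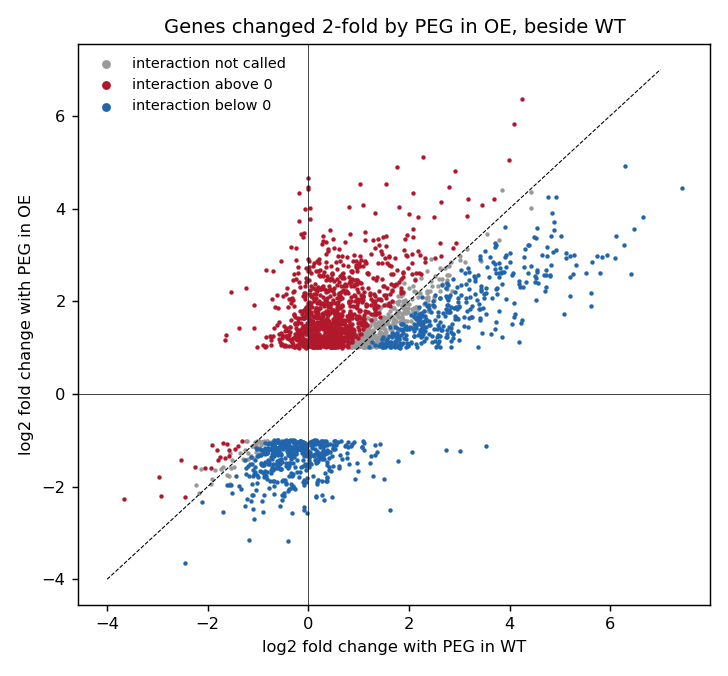
Log2 fold change with PEG in OE against that in WT, on log2(FPKM + 1), for the 1767 genes raised and the 530 lowered 2-fold in OE, with a dashed line of equal change. Red points have a called interaction above 0 (1043 of the raised and 20 of the lowered genes) and blue points one below 0 (460 of the lowered and 380 of the raised genes), and grey points have none.

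The interaction reached 2-fold above 0 in 943 genes (4.15%) and below 0 in 1087 (4.79%). The count below 0 was 1736 with a pseudocount of 0.1 and 1867 with voom. The balance of the 2 counts also depended on the length trend and on scaling. With the trend removed they were 789 above and 1218 below 0, or 857 and 1120 with a least-squares curve. With FPKM rescaled to the same sum they were 773 and 1430, and with quantile normalization 1043 and 1116. Of the raised genes, 663 rose more in OE by at least 2-fold and 180 rose more in WT by at least 2-fold. Of the lowered genes, 254 fell more in OE by at least 2-fold.

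Potri.003G068900 had the largest interaction above 0 among genes changed 2-fold in OE. It read 3.65, 3.65 and 3.26 FPKM in OE control and 111, 114 and 115 in OE PEG, a log2 fold change of 4.66 (SE 0.08, limma adjusted p = 7.5e-15). In WT it stayed at 0.571 ± 0.0804 FPKM without PEG and 0.570 ± 0.168 with it (SD, n = 3; log2 fold change -0.01, limma adjusted p = 0.96). The OE control libraries already lay above all 6 WT libraries. The interaction was 4.67 (SE 0.11, limma adjusted p = 9.3e-13).

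Potri.014G047000 was near 0 in 3 of the 4 groups. It read 0.386, 0.342 and 0.316 FPKM in OE control and 27.7, 24.4 and 26.3 in OE PEG (log2 fold change 4.33, SE 0.08, limma adjusted p = 1.7e-14). The WT control libraries read 0.212, 0.354 and 0.26 FPKM and the WT PEG libraries 0.104, 0.178 and 0.0606. The WT difference of -0.19 missed the threshold (limma adjusted p = 0.057), and the interaction was 4.52 (SE 0.12, limma adjusted p = 1.2e-12).

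Genes that moved the other way in OE are shown by the 2 largest interactions below 0. Potri.001G032500 read 5.24, 5.66 and 4.55 FPKM in OE control and 1.48, 2.15 and 1.86 in OE PEG, a fall of -1.12 on the log2 scale (SE 0.10, limma adjusted p = 1.1e-07). In WT it rose from 1.83 ± 0.230 to 31.8 ± 1.81 FPKM (SD, n = 3), by 3.54 on the log2 scale. Potri.005G014300 read 9.27, 9.82 and 10.5 FPKM in OE control and 4.13, 3.44 and 3.41 in OE PEG, a fall of -1.23 (SE 0.08, limma adjusted p = 8.1e-09). In WT it rose from 2.66 ± 0.317 to 28.5 ± 2.12 FPKM, by 3.01. In both genes the OE control libraries lay above the WT control libraries and the OE PEG libraries below the WT PEG libraries. The interactions were -4.66 (SE 0.14, limma adjusted p = 3.2e-12) and -4.24 (SE 0.12, limma adjusted p = 2.2e-12).

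Raised genes often had raised neighbours. The chromosome and order of a gene were read from its identifier, by the naming convention of Populus trichocarpa, for 22629 tested genes, and a neighbour was the next tested identifier on either side within 200 in number. Of the 1693 raised genes with a neighbour, 482 (28.5%) had a raised one, against 2260 of the 20151 genes that were not raised (11.2%). A lowered neighbour was found for 76 of 512 lowered genes (14.8%), against 787 of 21332 others (3.69%). Raised genes had a lowered neighbour in 53 cases (3.13%). These shares are a description with no test, and this measure was chosen after values were seen. Near-identical copies often lie side by side, and reads shared between them could have been split or dropped in counting, so the values of neighbours are uncertain as separate genes.

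The 482 genes formed 196 runs, of which 145 held 2 genes, 35 held 3 and 16 held 4 or more. By chromosome, the share raised ran from 5.56% on chromosome 18 to 10.6% on chromosome 11, and the share lowered from 1.33% on chromosome 3 to 4.86% on chromosome 19.

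The longest run, of 10 genes on chromosome 17, changed its pattern along its length. At places 1 to 6 the genes rose in OE and no change was called in WT, where log2 fold changes lay between -0.09 and 0.09. Place 3, for example, read 5.88, 5.26 and 5.55 FPKM in OE control and 23.1, 27.8 and 23.2 in OE PEG (log2 fold change 1.97, SE 0.10, limma adjusted p = 1.5e-10), and 1.22 ± 0.211 and 1.19 ± 0.196 FPKM in WT without and with PEG (SD, n = 3). At places 7 to 10, genes of 351 to 381 bp rose in both genotypes. Place 7 read 2.68, 4.68 and 4.32 FPKM in OE control and 25.7, 29.7 and 24.4 in OE PEG, while WT went from 0.258 ± 0.156 to 44.9 ± 3.37 FPKM (SD, n = 3). The interaction was above 0 at places 1 to 6 and 10 and below 0 at places 7, 8 and 9. At place 10 all 3 WT control libraries were listed at 0, so no fold can be given for WT and its interaction holds for the log2(FPKM + 1) scale only.

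**Figure D5:**
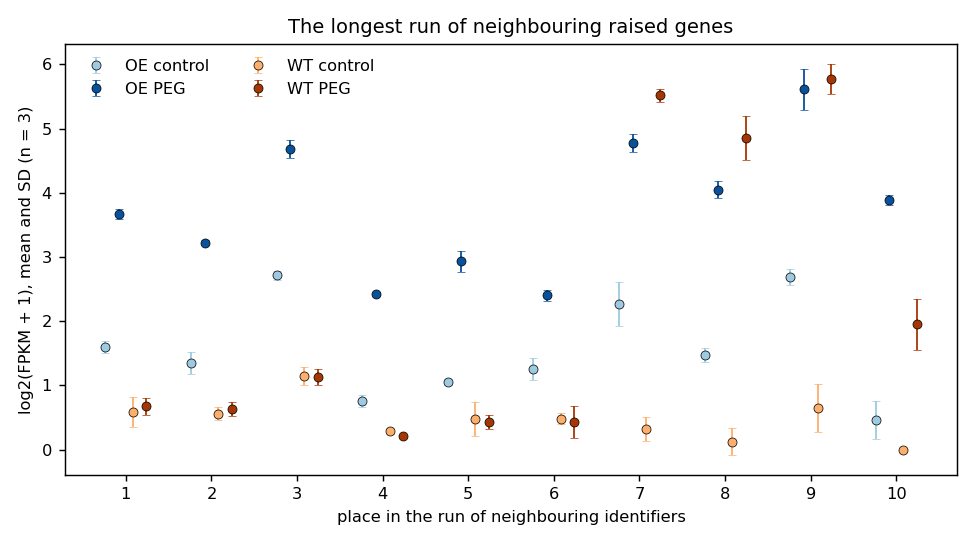
Level of the 10 genes of the longest run of raised neighbours, on chromosome 17, as the mean and SD of log2(FPKM + 1) over 3 libraries per group, by place in the run. At places 1 to 6 WT PEG lies at the WT control level, and at places 7 to 9 its mean lies above that of OE PEG.

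The other runs described here are those of 6 or more genes and 1 of 4 that holds a named gene. They differed in how WT responded. In the run of 4 genes on chromosome 14 that ends with Potri.014G047000, OE control means were 0.0473 to 0.555 FPKM and OE PEG means 7.17 to 26.1, while no WT mean passed 0.276. The first gene of this run had reads in 1 OE control library only (0.142 FPKM) and was listed at 0 in all 6 WT libraries, and it read 22.5, 20.8 and 21.3 FPKM in OE PEG. None of the 4 was called raised in WT, and all 4 interactions were above 0.

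A run of 6 genes on chromosome 3 rose from means of 1.46 to 24.02 FPKM in OE control to 5.03 to 73.7 in OE PEG. On the log2(FPKM + 1) scale none of its genes rose 2-fold in WT, where the highest log2 fold change was 0.95. In FPKM, WT means went from 0.833 to 2.51 at place 4 and from 0.604 to 2.06 at place 6. The log2(FPKM + 1) scale understates both of these rises. All 6 interactions were above 0. A run of 6 genes on chromosome 11 rose from 1.69 to 19.9 FPKM to 5.29 to 205 FPKM, also with 6 interactions above 0. On the log2(FPKM + 1) scale 4 of its genes rose 2-fold in WT.

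A run of 6 genes on chromosome 7 showed the reverse. Its highest member read 11.6, 12.9 and 13.4 FPKM in OE control and 189.9, 205 and 179 in OE PEG, a log2 fold change of 3.82 (SE 0.09, limma adjusted p = 5.7e-14). In WT it went from 0.212 ± 0.192 to 120.3 ± 2.65 FPKM (SD, n = 3), a log2 fold change of 6.66. All 6 interactions were below 0, and all 6 OE control means, from 1.69 to 12.6 FPKM, were above the WT control means, which did not pass 0.466.

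A run of 8 genes on chromosome 1, of 1766 to 2082 bp, rose from means of 0.715 to 31.8 FPKM in OE control to 5.34 to 120.6 in OE PEG. On the log2(FPKM + 1) scale 7 of the 8 also rose 2-fold in WT. The interaction was above 0 in 1, below 0 in 3 and not called in the rest. The gene with the interaction above 0, at place 3, was the one not raised 2-fold in WT. Its mean went from 0.114 to 0.980 FPKM in WT and from 0.715 to 5.34 in OE, so its interaction holds for this scale only. Replicates of another gene of this run spread widely in OE PEG, at 9.59, 17.7 and 5.16 FPKM. A second run on chromosome 1, of 7 genes, rose from means of 0.443 to 35.7 FPKM in OE control to 2.29 to 95.9 in OE PEG. All 7 were called raised in WT, 2 of them 2-fold on the log2(FPKM + 1) scale, and the interaction was above 0 in 4 and below 0 in 2. Its WT control means ran from 0 to 9.55 FPKM, so these interactions hold for the log2(FPKM + 1) scale only.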

How the data were processed

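RNA-seq FPKM values of 12 libraries, per the column names and titles 3 in each of 4 groups, were deposited by the authors to 4 decimals, scaled per gene length and library depth. The submitters' processing notes name HTSeq 0.6.0, HISAT2 2.1.0 and Bowtie2 2.2.3 without roles. The sources used here do not give the genome build, annotation or strand setting. log2(FPKM + 1) was tested with limma 3.58.1 in R 4.3.3, with moderated two-sided statistics and a mean-variance trend, in 1 fit of all 12 libraries (4 group means, 8 residual degrees of freedom). P-values were adjusted by Benjamini-Hochberg over all 22699 tested genes, and a gene was called at 0.05, and 2-fold at a log2 fold change of 1 or more in size.

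Reads and lengths were recovered from the steps between FPKM values for 31622 genes, and the other 3077 were at 0 throughout; 99.65% of 2886 implied lengths lay within 0.05 bp of a whole number. An FPKM of 1 at the median length of 1698 bp stood for 46.1 to 63 reads. The sources used here do not say whether a read is a mate or a pair. The length trend was removed per library with a robust loess curve (span 0.5). The recovery of reads and the limma test were tried on simulated data, and the removal of the length trend was not.

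Genes were named by identifier as the 2 largest rises, falls and interactions of each sign among genes changed 2-fold in OE, with at least 5 FPKM in the higher OE group and no overlap of the OE libraries. The genes, lists and measures were chosen with earlier results of these data known. Functional gene lists were prepared and not used, since no annotation was at hand.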

Additional observations from a re-analysis of the deposited data

Results flagged for a closer look

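The PEG response of OE differed from that of WT by the interaction test of limma in 943 genes with an interaction of 2-fold above 0 and 1087 with one of 2-fold below 0. Of the named genes, the interaction was 4.67 for Potri.003G068900 and 4.52 for Potri.014G047000, which rose in OE with no change called in WT. It was -4.66 for Potri.001G032500 and -4.24 for Potri.005G014300, which fell in OE and rose in WT. It was -2.76 for Potri.001G176000 and -1.20 for Potri.002G060400, which fell in both and further in OE. It was 2.11 for Potri.003G061200 and 1.73 for Potri.003G061000, which did not hold with a smaller pseudocount or on recovered reads. These genes were taken as the extremes of many, so their values may overstate what new samples would give.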

How the results depend on the processing

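Counts of genes raised 2-fold in OE stayed within 1.5 times of 1767 in every alternative run, and those lowered 2-fold did so except for 823 with a pseudocount of 0.1 and 820 with voom. The interaction 2-fold below 0 gave 1736 and 1867 genes in those 2 settings. With the length trend removed, 789 interactions lay above and 1218 below 0 by 2-fold, against 943 and 1087 before. The length trend was -0.2926 without a filter, -0.3791 at a minimum mean FPKM of 5, -0.3287 with quantile normalization, -0.027 with the trend removed and 0.0834 with a least-squares curve, an alternative added after seeing the data, under which 5674 genes were raised and 8967 lowered (38.8% raised). Interactions reversed for Potri.003G061200 with voom (-0.20) and for Potri.003G061000 with a pseudocount of 0.1 (-0.0457) and with voom (-1.03). The cause was not tested, except that removing the trend lowers it by construction. Leaving out each library in turn gave 1754 to 1781 raised and 523 to 543 lowered 2-fold, 6558 to 7133 raised and 7028 to 7660 lowered at any size, 921 to 959 interactions above and 1079 to 1122 below 0 by 2-fold, 6458 to 6805 raised and 7131 to 7789 lowered in WT, and a length trend of -0.3485 to -0.3348.

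Same-numbered OE libraries did not deviate together (correlations of 0.0579, 0.0383 and -0.0372), so the number is not taken as a pairing. With the replicate number as a block, 1768 genes were raised and 530 lowered 2-fold, 7085 and 7571 at any size, with 944 and 1087 interactions; no named gene changed its call. Alternatives on functional gene lists and on annotated gene lengths were not run, since no annotation was at hand. Some results counted in parts moved, in settings where the lists of changed genes differed in size as well. With voom, 594 of 2314 raised genes rose less in OE (380 of 1767 before). Also with voom, 179 of 820 lowered genes were raised in WT (112 of 530 before). With quantile normalization, 165 of 1602 raised genes were lowered in WT (94 of 1767 before). At a minimum mean FPKM of 5, 279 of 1200 raised genes had a raised neighbour (482 of 1767 before).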
